A study of Mus musculus with 21 samples.

Results

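The cytosolic ribosome is built from RNA and many proteins, in a large subunit, which joins amino acids, and a small subunit, which reads the messenger RNA. The genes for these proteins are named Rpl and Rps for the large and small subunit, and they are transcribed at high levels in growing cells. Their messenger RNAs start with a pyrimidine tract that links their translation to mTOR signalling, and Myc, a target of Wnt signalling in the intestinal crypt, is known to raise ribosome production. The genes described here are those whose array name was Rpl or Rps followed by a number (with an optional a, x or l), together with Rplp0, Rplp1, Rplp2 and Rpsa. They numbered 80 of the 34844 gene names on the array, 49 of the large and 31 of the small subunit, each measured by its brightest probe.

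The samples were small intestinal organoids from mice in which doxycycline switches on a human N-terminally truncated, Myc-tagged beta-catenin (Tet-O promoter, with M2-rtTA expressed from the ROSA26 promoter), which stimulates Wnt signalling and growth. All organoids had first been grown with doxycycline. Vehicle cultures (7 arrays, letters A to G) stayed in doxycycline. Compound cultures stayed in doxycycline with 2 µM of Compound 2 (letters A to C), Compound 9 (A to C) or Compound 6 (D to G) for 24 h. Withdrawal cultures (D to G) lost doxycycline for 24 h. The compounds are close analogues from a 3,4,5-trisubstituted pyridine series that inhibit the Mediator kinases CDK8 and CDK19. The age and number of the mice, and what a letter stands for, were not given in the sources used here, so the spread behind the p-values is that between these samples and may be technical.

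Each sample was labelled with Cy3 and hybridised with Cy5-labelled Universal Mouse Reference RNA, a common reference, on a 2-colour Agilent array. A level is the log2 ratio of sample over reference, and a change is a difference between such levels. A gene was tested where the scanner called its probe above background in the sample channel (Cy3) on 3 or more arrays, which left 21318 genes and 77 of the 80 ribosomal protein genes, all 77 of them above background on all 21 arrays. The brightest 5% of the genes tested held 52 of the 77. The precision is limited by the 3 or 4 arrays in each treated group. In such bulk RNA, fewer cells of a type and less of the transcript per cell cannot be told apart.

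Letters A to C and letters D to G were scanned on 2 days and on different slides, and the ribosomal protein genes were far apart between these sets. Their median level was -2.70 ± 0.15 (SD, n = 3) on the vehicle arrays A to C and -1.29 ± 0.53 (SD, n = 4) on the vehicle arrays D to G, so every test carried a term for the set. Samples with the same letter also deviated together: the correlation of their deviations from their group means over all genes lay between 0.21 and 0.75 in the 21 same-letter pairs, with a median of -0.18 in the 54 other pairs of the same set. Each comparison is therefore given from limma, with p-values adjusted over all genes by Benjamini-Hochberg and called below 0.05, both with the set term and with the letter as a block in its place. Markers above background on every array were all 10 examined for epithelium, 8 of 11 for fibroblasts, 10 of 11 for leukocytes and 2 of 6 for endothelium. Pdgfra and Lum (fibroblasts) and Cdh5 and Emcn (endothelium) were above it on none.

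The start of transcription is where members of this gene family are known to share sequence, so windows of 60 bases before and 30 after the annotated start are shown for 6 of them, from RefSeq (GRCm38.p6) and on the gene's strand. Rpl12 had the largest and Rpl10 the smallest change after doxycycline withdrawal, Rps18 and Rpl11 lay on the larger side of the median (-0.64 and -0.63), and Rps27 and Rps27l are a pair of paralogues whose values parted below. They were chosen after their values were seen. Capitals mark the longest run of a C followed by pyrimidines that begins at most 20 bases before the start or after it, where it reaches 5 bases, and the letters CCGGAAG on either strand.
Rpl12 (chr2:32961652-32961741, plus strand): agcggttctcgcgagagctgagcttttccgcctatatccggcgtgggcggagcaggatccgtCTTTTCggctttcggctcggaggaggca
Rps18 (chr17:33955636-33955725, minus strand): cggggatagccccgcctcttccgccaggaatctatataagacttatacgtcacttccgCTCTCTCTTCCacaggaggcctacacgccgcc
Rpl11 (chr4:136053364-136053453, minus strand): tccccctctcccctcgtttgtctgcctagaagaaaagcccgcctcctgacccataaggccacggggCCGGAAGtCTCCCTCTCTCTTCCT
Rps27 (chr3:90213619-90213708, minus strand): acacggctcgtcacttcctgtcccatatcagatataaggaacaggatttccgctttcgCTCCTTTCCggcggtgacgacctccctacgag
Rps27l (chr9:66946026-66946115, plus strand): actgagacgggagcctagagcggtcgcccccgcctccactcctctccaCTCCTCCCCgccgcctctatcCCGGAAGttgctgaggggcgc
Rpl10 (chrX:74270756-74270845, plus strand): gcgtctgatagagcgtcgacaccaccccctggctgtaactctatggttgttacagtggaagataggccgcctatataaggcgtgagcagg

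A RefSeq window, of 250 bases before and 50 after a start, was matched by symbol to 56 of the 77 genes. A run of at least 8 pyrimidines opening with a C, on the gene's strand and within 20 bases of the start, was held by 31 of the 56 (55.4%), against 4489 of all 27018 genes with such windows (16.6%). At the start itself, a C within 2 bases of it followed by at least 4 pyrimidines was held by 21 (37.5%), against 10.6% of all genes. CCGGAAG, the core bound by ETS factors such as GABP, stood in 24 windows on either strand (42.9%, against 9.93%). The letters CACGTG, the E-box that Myc binds, stood in 6 of the 56 (against 8.09% of all genes), and TATAAA, on the gene's strand before the start, in 1 (1.79%, against 8.93%). The median change after withdrawal differed little between genes with and without a feature: it was -0.53 in the 31 with the longer pyrimidine run and -0.50 in the others, and -0.55 with and -0.50 without CCGGAAG. These are matches of letters in a window and not sites of binding.

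Withdrawal of doxycycline asks what the genes do when the activated beta-catenin is switched off. No group lacked the transgene, so loss of doxycycline itself and loss of the activated beta-catenin cannot be told apart. All 77 ribosomal protein genes were lower than in vehicle, by a median of 0.51 on the log2 scale (range -0.80 to -0.34), while the median of all 21318 genes tested was -0.01. With the set term, 5 of the 77 fell (Rpl19, Rpl29, Rps13, Rps27l and Rpsa; 6.49%, against 13.5% of all genes tested that were called lower), and none rose. With the letter as a block all 77 fell (adjusted p between 2.02e-05 and 0.0062), against 23.9% of all genes. The set-term standard error of a ribosomal protein gene had a median of 0.23, against 0.10 over all genes, and with the letter block these medians were 0.084 and 0.077. The ribosomal protein genes thus varied more between letters than most genes did.

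**Figure D1:**
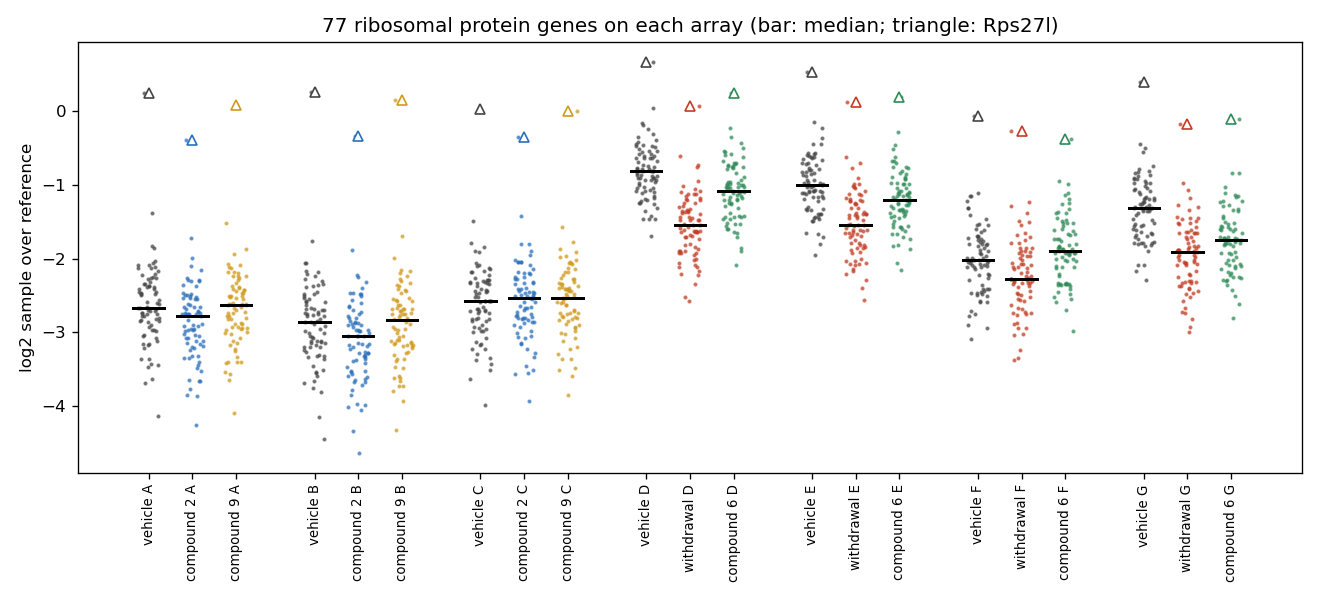
Log2 sample over reference of the 77 ribosomal protein genes (points) on each of the 21 arrays, ordered by letter, with the median as a bar and Rps27l as an open triangle. Vehicle medians lie between -2.86 and -2.57 for letters A to C and between -2.02 and -0.81 for letters D to G, and within letters D to G the withdrawal array is below its vehicle array.

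The array medians show the pairing. Vehicle D, E, F and G had median levels of -0.81, -1.0, -2.02 and -1.31, and withdrawal D, E, F and G had -1.55, -1.55, -2.27 and -1.91. Vehicle F was lower than every withdrawal array but the one with its own letter, so the groups overlap, whereas each withdrawal array was below the vehicle of its letter. The median difference within a letter was -0.73 for D, -0.53 for E, -0.23 for F and -0.60 for G. All 77 genes were lower in D, E and G and 76 in F, where the exception was Rplp0.

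**Figure D2:**
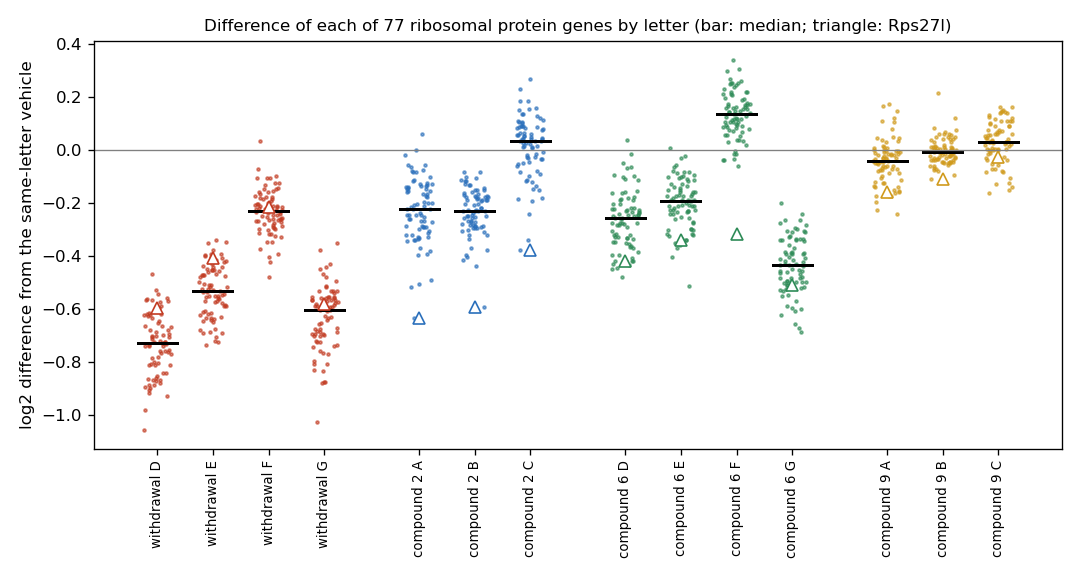
Log2 difference of each of the 77 ribosomal protein genes (points) from the vehicle array of the same letter, with the median as a bar and Rps27l as an open triangle. Withdrawal medians run from -0.73 to -0.23, compound 2 and compound 6 each have 1 letter with a median above 0, and compound 9 medians lie between -0.04 and 0.03.

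How many genes were called with the set term depended on single arrays. Without vehicle F all 77 fell, and without all arrays of letter F 68 did. Without vehicle D, E or G, or without withdrawal F or G, none did, and without withdrawal E 9 did. With the letter block the count was 77 under the removal of each of the 21 arrays in turn. Shares over all genes under these removals are not given, so the counts do not set these genes apart. Of the slides that held both groups, 1 had 3 withdrawal arrays and 1 vehicle array, with a median difference of -0.77. Another had 1 withdrawal array and 2 vehicle arrays, with -0.52. The first set withdrawal D, E and F against vehicle E, the second withdrawal G against vehicle D and F. These slide differences mix letter with treatment, so the direction cannot be read from them.

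Among the members, the largest change after withdrawal was that of Rpl12, a protein of the stalk base where elongation factors dock. Its level was -1.08, -1.33, -2.90 and -1.70 on vehicle D to G and -2.07, -2.04, -3.38 and -2.73 on withdrawal D to G. Each withdrawal value lay below its own letter's vehicle value, and the groups overlapped through letter F. The change was -0.80 ± 0.35 (SE), a 1.74-fold lower level, with an adjusted p of 0.113 with the set term and 2.34e-05 with the letter block. Its probe lies on chromosome 2 in mm9 (chr2:32819082-32819298) and spans 217 bases, more than its own length.

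Rps13, a small subunit protein, fell most among the 5 genes called with the set term. Vehicle D to G stood at -0.55, -0.70, -1.80 and -0.97, and withdrawal D to G at -1.44, -1.39, -2.19 and -1.84. The change was -0.71 ± 0.23 (SE; adjusted p = 0.0374, limma). Rpsa, which also serves as a laminin receptor precursor at the cell surface, fell by 0.68 ± 0.22 (adjusted p = 0.0388), Rpl29 by 0.62 ± 0.21 (adjusted p = 0.0404) and Rpl19 by 0.53 ± 0.18 (adjusted p = 0.0405). In Rps13, Rpsa, Rpl29 and Rpl19, vehicle F lay within the range of the withdrawal values.

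The spread among the 77 changes was small. Their standard deviation across genes was 0.091, against 0.325 across all genes tested, and the medians of the 46 large subunit and 31 small subunit genes were -0.52 and -0.51. At the low end, Rpl10, which carries the joining of the subunits, changed by -0.34 ± 0.19 (adjusted p = 0.215; 0.00108 with the letter block). Rplp0, the acidic stalk protein often used as a reference gene in PCR, changed by -0.35 ± 0.26 (adjusted p = 0.369; 0.00624 with the letter block), with vehicle values of -1.36, -1.40, -2.59 and -1.79 and withdrawal values of -1.89, -1.81, -2.55 and -2.26. Its stalk partners Rplp1 and Rplp2 stood at -0.48 ± 0.24 and -0.55 ± 0.26 (adjusted p = 0.165 and 0.141; 0.000374 and 4.6e-05 with the letter block).

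**Figure D3:**
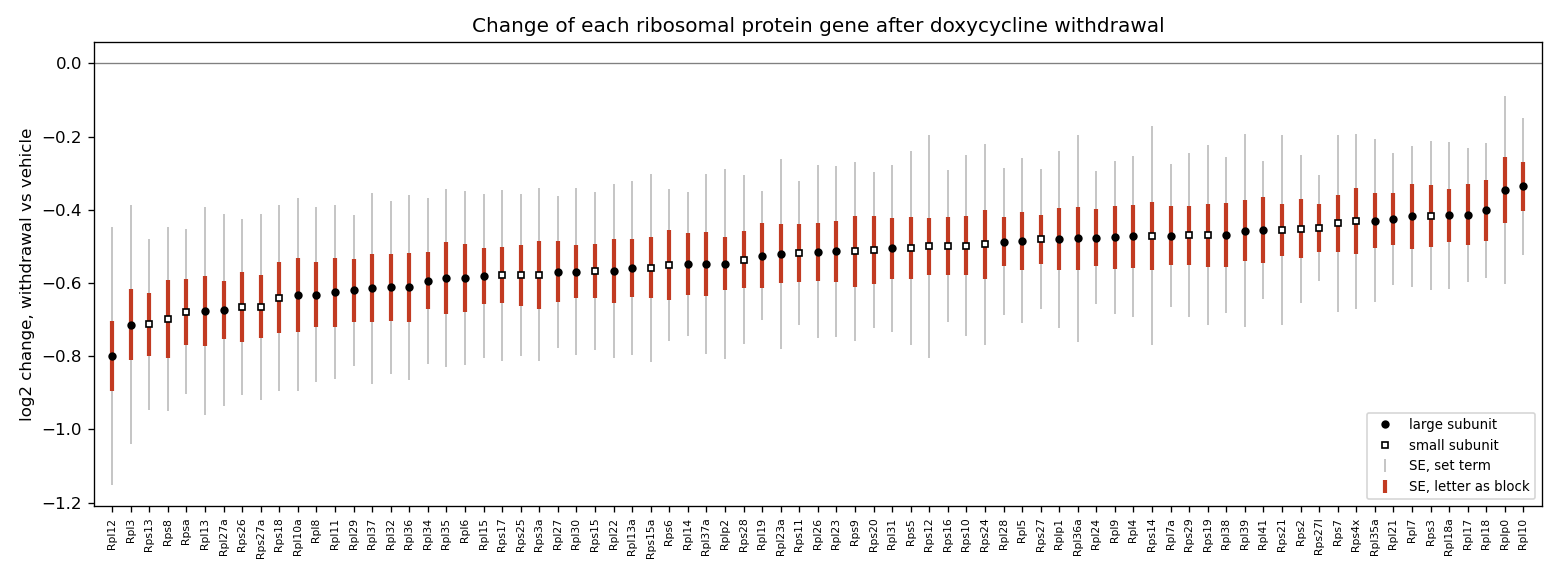
Log2 change after doxycycline withdrawal of each of the 77 ribosomal protein genes, ordered by size, with large subunit genes as filled circles and small subunit genes as open squares; grey bars are standard errors with the set term and red bars with the letter as a block. The changes run from -0.80 for Rpl12 to -0.34 for Rpl10 and all lie below 0.

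For 18 members a role outside the ribosome is known. Rpsa fell among them with the set term (5.56%, against 13.5% of all genes called lower). All 18 fell with the letter block, as all 77 members did, against 23.9% of all genes. Their median was -0.49. Rpl5 and Rpl11, which bind Mdm2 and so stabilise p53 when ribosome assembly is disturbed, stood at -0.48 ± 0.23 and -0.63 ± 0.24 (adjusted p = 0.134 and 0.0687). Rps19 and Rps14, whose loss underlies inherited and acquired anaemias, stood at -0.47 ± 0.25 and -0.47 ± 0.30 (adjusted p = 0.185 and 0.282). Rps6, the target of the S6 kinases, stood at -0.55 ± 0.21 (adjusted p = 0.068). With the letter block these 5 adjusted p-values lay at 0.000212, 0.000109, 0.000508, 0.000939 and 0.000337.

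Across the 77 genes, those lower against the reference in vehicle D to G had the larger decreases: the correlation of level with change was 0.41 (Pearson) and 0.43 (Spearman). It describes genes that share arrays and the loess curve, and the level enters the change, so it carries no test. Of the members, 55 had further probes above background, 99 in all, and 98 of these were lower after withdrawal, with a median of -0.49. The exception was a dim probe of Rpl6. The array annotation placed 8 of the chosen probes on another chromosome than the gene's own in RefSeq, where processed copies can lie, so their signal may be shared.

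The change after withdrawal depended on scaling in size but not in sign where the set term was kept. The median of the 77 genes was -0.29 in the scanner's own log ratios, -0.31 without loess, -0.20 in the sample channel alone and -0.27 in the series' deposited matrix, and no gene was called in the first 3 of these. With the letter block 50, 64, 36 and 73 genes fell under those settings, for which the share over all genes is not given. Without the set term the median was 0.10, since 3 of the 7 vehicle arrays then came from the lower set.

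**Figure D4:**
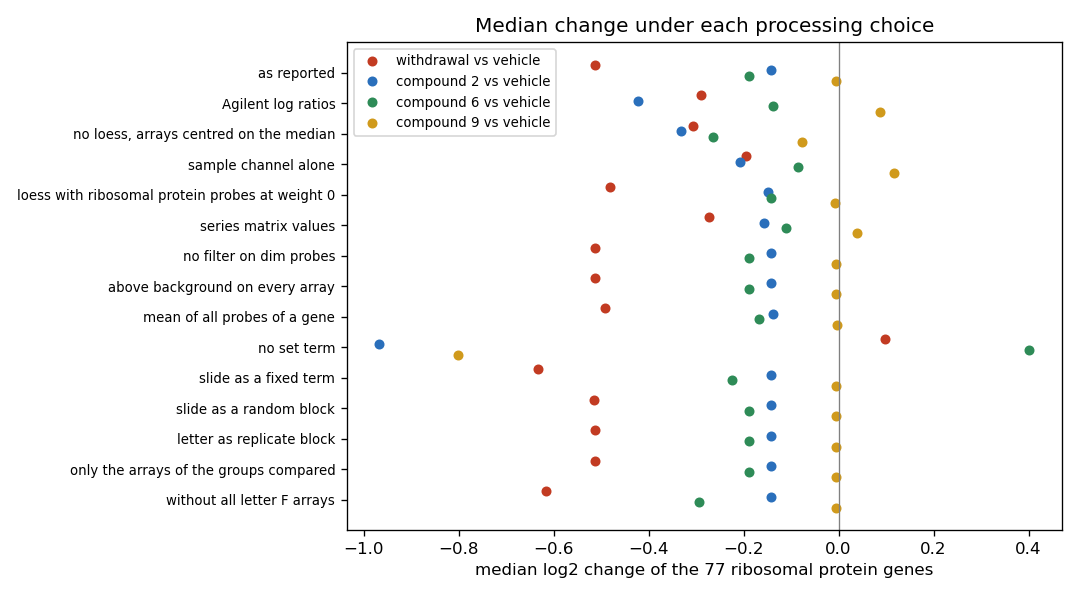
Median log2 change of the 77 ribosomal protein genes in each comparison with vehicle (colours) under each processing choice (rows). The withdrawal median lies between -0.63 and -0.20 under every choice but the fit with no set term, where it is 0.10.

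Other genes of translation were examined as lists. A further 7 ribosomal protein or fusion genes lay outside the naming rule, among them Fau, which encodes a ubiquitin-like peptide fused to a ribosomal protein, and Gnb2l1, the small subunit scaffold Rack1. Of these genes, 1 fell with the set term (Rpl7l1, -0.34 ± 0.10, adjusted p = 0.0208) and all 7 with the letter block, against 13.5% and 23.9% of all genes called lower. Rpl22l1, the paralogue of Rpl22, stood at -0.57 ± 0.23 (adjusted p = 0.0804) beside -0.57 ± 0.24 for Rpl22 (adjusted p = 0.097), and both fell with the letter block (adjusted p = 9.32e-05 and 0.000125).

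Among 24 translation genes known to carry the pyrimidine tract, 14 fell with the set term (against 13.5% of all genes), none rose and the median was -0.42. The largest decreases were those of the histone chaperone Nap1l1 (-1.11 ± 0.20, adjusted p = 0.00132), the nucleolar Npm1 (-1.04 ± 0.25, adjusted p = 0.00694) and the importin Ipo5 (-0.97 ± 0.18, adjusted p = 0.00148). Among 22 translation factors outside that list, 15 fell, with the same median of -0.42. Eif3d stood lowest (-0.70 ± 0.18, adjusted p = 0.0102), before Eif2b3 (-0.67 ± 0.14, adjusted p = 0.00371) and the helicase Eif4a1 (-0.66 ± 0.13, adjusted p = 0.00177). Of 29 genes that carry or assemble ribosomal proteins 18 fell, led by the Rpl3 chaperone Grwd1 (-1.63 ± 0.24, adjusted p = 0.000365), Rpf2 (-1.16 ± 0.15, adjusted p = 0.00015) and the nucleolar GTPase Gnl3 (-1.15 ± 0.19, adjusted p = 0.000643). Of 20 tRNA synthetases 8 fell, with Gars lowest (-1.22 ± 0.18, adjusted p = 0.000359). Of the 73 genes of the mitochondrial ribosome 51 fell and none rose, with a median of -0.34. All these list counts are from the set-term fit. With the letter block, 23 of the 24 tract-bearing genes and 17 of the 22 other factors fell, against 23.9% of all genes. In that fit 21 of the 29 assembly genes fell and 2 rose, and 15 of the 20 synthetases and 60 of the 73 mitochondrial genes fell. All 77 ribosomal protein genes fell in it.

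Of 22 regulators of ribosomal protein genes, 3 fell and 2 rose with the set term, shares near those of all genes (13.5% lower and 7.25% higher). Myc fell by 2.09 ± 0.22 (adjusted p = 1.56e-05), and it was lower in each letter, with differences of -2.35, -2.43, -1.16 and -2.40 in D, E, F and G. Trp53, which encodes p53, fell by 0.60 ± 0.12 (adjusted p = 0.00279), and Larp1, which binds the capped pyrimidine tract, by 0.41 ± 0.11 (adjusted p = 0.0143). Its relative Larp1b rose by 0.47 ± 0.06 (adjusted p = 0.000133) and Mdm2 by 0.28 ± 0.06 (adjusted p = 0.00383).

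Compound 6 was compared with the vehicle arrays of the same letters. All 77 ribosomal protein genes had a change below 0, with a median of -0.19 against -0.04 over all genes. None was called with the set term, against 13.6% of all genes called lower, and 1 gene had an unadjusted p below 0.05. With the letter block 25 fell and none rose, against 24.3% of all genes called lower, so the count of calls does not set these genes apart.

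The letters disagreed. The array medians were -1.08, -1.21, -1.90 and -1.75 for compound 6 D to G. Within letters the median difference was -0.26 for D, -0.19 for E and -0.43 for G, but 0.14 for F, where 69 of the 77 genes were higher. Without all letter F arrays 3 genes fell with the set term and 66 with the letter block. Without vehicle F alone the counts were 9 and 67. Neither these counts nor the next ones have the share over all genes beside them, so they cannot set these genes apart. Leaving out compound 6 G, vehicle G or vehicle D brought the letter-block count to 5, 6 and 7, vehicle E or compound 6 E to 13 and 14, and compound 6 F to 42. On the slide that held vehicle D and F and compound 6 D the median difference was 0.33, against -0.47 and -0.56 on the other slides with both groups. Those set compound 6 E and G against vehicle E, and compound 6 F against vehicle G. The slide differences therefore mix letter with treatment.

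The members that fell under compound 6 with the letter block were led by Rps27l and Rps13. Rps13 stood at -0.95, -1.22, -1.86 and -1.66 on compound 6 D to G, below its letter's vehicle in all 4, by 0.42 ± 0.23 (adjusted p = 0.211; 0.00128 with the letter block). Rpl11 stood at -0.35 ± 0.24 and Rpl13a, released from the ribosome to silence inflammatory transcripts, at -0.30 ± 0.24 (adjusted p = 0.31 and 0.395; 0.00758 and 0.00702 with the letter block). Further probes of Rpl11 gave smaller decreases with compound 6, -0.201 and -0.132, whereas those of Rpl13a gave -0.362 and -0.352. Rplp0 (-0.05 ± 0.26), Rps19 (-0.05 ± 0.25) and Rps4x (-0.05 ± 0.24) were nearest to 0.

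In the same comparison 3 of the 24 tract-bearing translation genes fell, Ipo5, Eif3e and Eif2s3x (-0.51 ± 0.18, -0.42 ± 0.13 and -0.23 ± 0.07; adjusted p = 0.0465, 0.0275 and 0.015), and 21 of the 73 mitochondrial ribosomal genes did, against 13.6% of all genes called lower and 11.3% called higher. Of the assembly genes 5 fell and 2 rose, of the other translation factors 2 fell, and of the 20 tRNA synthetases 2 fell and 1 rose. These counts are from the set-term fit, in which the shares lower among the tract-bearing genes, the other factors and the synthetases were near or below that of all genes. With the letter block 17 of the 24 tract-bearing genes fell, against 24.3% of all genes. Of the 22 other factors 9 fell and 2 rose in that fit, and of the 20 synthetases 8 fell and 7 rose. Myc stood at -0.12 ± 0.22 (adjusted p = 0.726). Of the regulators Rps6ka1 (-0.31 ± 0.10, adjusted p = 0.0231) and Yy1 (-0.28 ± 0.07, adjusted p = 0.00571) fell, and Mdm2 (0.29 ± 0.06, adjusted p = 0.00201) and Larp1b (0.25 ± 0.06, adjusted p = 0.00613) rose. Leukocyte markers moved beside these genes: 7 of 10 rose with compound 6, and their summed Cy3 signal was 13300 to 18200 on compound 6 arrays and 9250 to 15500 on vehicle arrays D to G. Of 9 fibroblast markers tested 5 rose, with a summed signal of 3100 to 3500 on compound 6 arrays and 2960 to 3580 on vehicle arrays D to G. Their part in the result was not tested.

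Compound 6 and withdrawal could be compared directly within letters D to G. The ribosomal protein genes were higher with compound 6, by a median of 0.34. None was called with the set term, against 7.31% of all genes called higher, and 75 of 77 with the letter block, against 19.4%. The exceptions were Rpl18 and Rps27l. The median differences within letters were 0.47, 0.33, 0.37 and 0.19 for D to G, with 77, 77, 76 and 75 genes higher. The call depended on scaling: with the letter block 12 genes were higher in the scanner's log ratios, 7 in the sample channel alone, 37 in the deposited matrix and 2 without loess, and without withdrawal D 46. The share over all genes is not given for these fits.

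With compound 2, given to letters A to C, the median of the ribosomal protein genes was -0.14 against 0.00 over all genes, with 73 of 77 below 0. None was called with the set term, against 2.05% of all genes, and 8 fell with the letter block, against 8.19% (a share near that of all genes): Rplp2, Rps2, Rps12, Rps13, Rps14, Rps18, Rps21 and Rps27l. Within letters the median difference was -0.22 for A, -0.23 for B and 0.04 for C. The median was -0.14 both in the large and in the small subunit genes. With the letter block 1 of the 46 large subunit genes and 7 of the 31 small subunit genes fell, against 8.19% of all genes.

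Among these 8 genes, Rps2, at the entry of the messenger channel, had levels of -3.05, -3.16 and -2.83 with compound 2 and -2.75, -2.76 and -2.59 in vehicle A to C. It changed by -0.31 ± 0.23 (adjusted p = 0.557; 0.031 with the letter block). Rps18, at the head of the small subunit, changed by -0.41 ± 0.29 (adjusted p = 0.529; 0.0194 with the letter block), and Rplp2 by -0.26 ± 0.30 (adjusted p = 0.737; 0.0414 with the letter block). A further bright probe of Rps18 gave only -0.187 with compound 2, and that of Rps2 gave -0.295. The letter-block count was 1 without compound 2 A, compound 2 B or vehicle A, and 2 without vehicle B or C. It was 5 without compound 6 D, compound 9 A, withdrawal E or vehicle E. It rose to 61 in the scanner's log ratios, where the median was -0.42, to 58 without loess (median -0.33, against -0.12 over all genes), to 17 in the sample channel alone and to 16 in the deposited matrix. No share over all genes stands beside these counts, so they cannot show whether the ribosomal protein genes stood apart.

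Compound 9 had the smallest differences. The median was 0.00, the range was -0.14 to 0.11, and no gene was called with the set term or with the letter block, against 0% of all genes called lower in each; 0 of the 77 had an unadjusted p below 0.05 with the set term. The standard error of a gene was 0.17 to 0.41 (median 0.27) with the set term and had a median of 0.097 with the letter block. Rpl12 changed by 0.10 with a 95% interval from -0.75 to 0.95 with the set term. Within letters the median difference was -0.04, -0.01 and 0.03, with 58, 46 and 25 genes lower in A, B and C. The sign of the median was not stable to scaling: it was 0.12 in the sample channel alone and -0.08 without loess.

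Compounds 9 and 2, at the same dose, time and letters, differed by a median of 0.14, the genes being higher with compound 9. None was called with the set term, against 1.48% of all genes called higher, and 4 were higher with the letter block, against 6.32%: Rps27l (0.44 ± 0.17; adjusted p = 0.001 with the block), Rps2 (0.38 ± 0.23; 0.0111), Rps13 (0.35 ± 0.27; 0.0248) and Rplp2 (0.26 ± 0.30; 0.045). Without compound 2 A, compound 2 B or compound 9 A 1 gene was called, without compound 9 B or C 2, and without vehicle F 13. The letter-block count was 69 in the scanner's log ratios, 46 in the sample channel alone, 30 in the deposited matrix and 26 without loess. Here too the share over all genes is not set beside the counts, so they do not describe these genes in particular. Compounds 6 and 2 differed by a median of -0.06 and compounds 6 and 9 by -0.18, through the vehicle arrays of their own letters. No gene was called with the set term, against 0.22% and 2.67% of all genes called lower. With the letter block none was lower with compound 6 than with compound 2, against 4.62% of all genes, and 2 were lower than with compound 9, against 11.2%, Rps13 (-0.44) and Rps27l (-0.30).

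Rps27l stood apart from the other members in level and, with compound 2, in the size of its change. After withdrawal its change (-0.45) lay within the members' range (-0.80 to -0.34). With compound 6 Rps13 changed more (-0.42 against -0.40). Rps27l encodes a close paralogue of Rps27 and is a known target of p53. Its mean level over the 21 arrays was 0.05, while the next highest member, Rpl7a, was at -1.11 and the lowest, Rpl12, at -2.99. The probe lies on chromosome 9 in mm9 (chr9:66795486-66797176) and spans 1691 bases, more than its own length. It was the only probe of the gene.

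Vehicle A, B and C stood at 0.24, 0.26 and 0.03, compound 2 A, B and C at -0.39, -0.33 and -0.34, and compound 9 A, B and C at 0.09, 0.16 and 0.01. The compound 2 values lay below all others of these letters, and those of compound 9 overlapped vehicle. The change with compound 2 was -0.54 ± 0.17, a 1.45-fold lower level (adjusted p = 0.0711 with the set term, 0.000202 with the letter block). It was the largest decrease of any member in letters A, B and C (-0.64, -0.59 and -0.38).

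On letters D to G, Rps27l stood at 0.67, 0.54, -0.06 and 0.40 with vehicle, 0.25, 0.20, -0.38 and -0.11 with compound 6 and 0.07, 0.13, -0.27 and -0.18 after withdrawal. Both treated groups were below vehicle in all 4 letters. The change was -0.40 ± 0.15 with compound 6 (adjusted p = 0.0528; 0.000217 with the letter block) and -0.45 ± 0.15 after withdrawal (adjusted p = 0.0341; 8.1e-05 with the letter block). In letter F, where most members were higher with compound 6 than with vehicle, Rps27l differed by -0.32. Compound 6 and withdrawal did not differ in it beyond their error (0.05 ± 0.15, interval -0.25 to 0.36), and with compound 9 it changed by -0.10 ± 0.17 (interval -0.45 to 0.25).

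The call for Rps27l turned on the scaling. Its adjusted p with the set term was 0.00512, 0.00303, 0.00467 and 0.00238 for compound 2 and 0.0231, 0.00477, 0.0229 and 0.00934 for compound 6 in the scanner's log ratios, without loess, in the sample channel alone and in the deposited matrix. After withdrawal it was 0.104, 0.12 and 0.0886 in the first 3 of these and 0.0429 in the deposited matrix. The model also mattered. With only the arrays of the groups compared, the adjusted p (limma) was 0.0988 after withdrawal, 0.0253 for compound 2 and 0.183 for compound 6. Without the set term it was 0.0944, 0.00805 and 0.114.

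**Figure D5:**
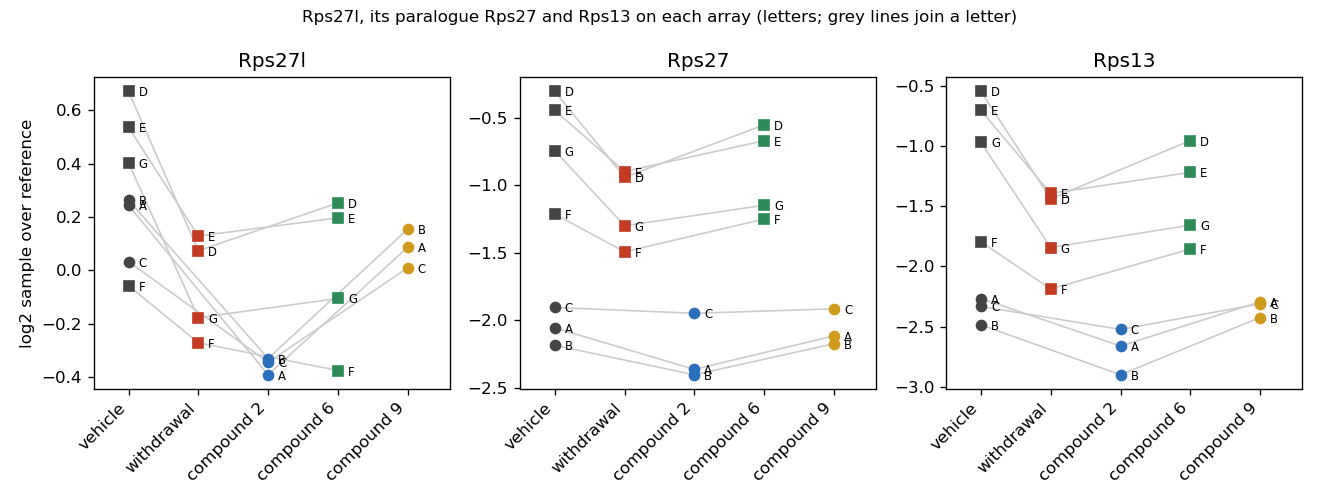
Log2 sample over reference of Rps27l, its paralogue Rps27 and Rps13 on each array by group, with circles for letters A to C, squares for letters D to G and grey lines joining arrays of a letter; each panel has its own axis. Rps27l lies between -0.39 and -0.33 with compound 2, below vehicle A to C at 0.03 to 0.26.

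Rps27, named here after the values were seen, followed the other members. It stood at -2.36, -2.40 and -1.95 with compound 2 and -2.06, -2.19 and -1.91 in vehicle A to C, a change of -0.19 ± 0.22 (adjusted p = 0.745; 0.108 with the letter block). Its change was -0.23 ± 0.19 with compound 6 and -0.48 ± 0.19 after withdrawal (adjusted p = 0.423 and 0.0818; 0.0121 and 5.93e-05 with the letter block). The array annotation placed its probe on chromosome 9, whereas the gene is on chromosome 3.

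The remaining 3 of the 80 genes were not tested. Rpl3l, expressed in heart and skeletal muscle, was above background on 0 of 21 arrays in either channel. Rpl39l, a testis paralogue, was above background on 0 of 21 arrays in the sample channel and on all 21 in the reference channel. Rpl10l, the testis copy of the X-linked Rpl10, was above background in the sample channel on 1 array.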

How the data were processed

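The authors hybridised 21 organoid samples (Cy3) with Universal Mouse Reference RNA (Cy5), without a dye swap, per the labels. The deposited scanner files give spot intensity in both channels and a log10 ratio (Agilent Feature Extraction 10.7.3.1, per the file headers). The deposited series matrix holds log2 sample over reference; its direction was taken from its correlation with the scanner ratios (0.924 to 0.950), and how it was normalized was not stated in these sources. Mean intensities were corrected by normexp with offset 50 and normalized by loess, with control spots and outlier-flagged spots at weight 0, in limma 3.58.1. Spots of a probe were averaged. Names came from the newer of 2 design annotations, which differ for few member probes. One limma fit of 5 groups with a set term (letters A to C or D to G) gave two-sided moderated tests. The letter replaced the set term in the block fit, and same-letter correlations all exceeded 0.1. The scripts were tested on simulated data. Named were, in each comparison with vehicle, the called members with the 10 largest changes in each direction, the stalk proteins, the paralogues, members with roles outside the ribosome, and the 3 largest called changes in each direction of each other list; Rpl12, Rps2, Rps18 and Rps27, and genes called only with the letter block, were named after their values were seen. Processing choices, the model terms and each array in turn were varied. Members and lists were chosen with earlier results of these data known. Between 42.6% and 51.9% of spots were above background in Cy3.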

Additional observations from a re-analysis of the deposited data

How the results depend on the processing

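The counts of called ribosomal protein genes moved with most choices, and the cause was not tested. They are given without the share over all genes under the same choice. After withdrawal (5 with the set term) the count was 0 in the scanner's log ratios, without loess, in the sample channel alone, with only the compared groups fitted and without the set term, 2 without the filter on dim probes, 8 with probes above background on every array, 9 with the mean of all probes, 10 with slide as a fixed term, 68 without letter F and 77 with the letter as replicate block. For compound 2 (0) it was 1 in the scanner's log ratios, without loess, in the sample channel, in the deposited matrix, with only the groups compared and without letter F, 6 without the set term and 8 with the replicate block. For compound 6 (0) it was 1 in those 4 scalings and with probes above background on every array, 3 without letter F and 25 with the replicate block. For compound 9 against compound 2 (0) it was 1 in those 4 scalings, with only the groups compared and without letter F, and 4 with the replicate block. The replicate block gave 75 for compound 6 against withdrawal and 2 for compound 6 against compound 9. Without the set term 74 were called for compound 6 against compound 2 and 66 for compound 6 against compound 9.

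The medians without the set term were 0.098 after withdrawal, 0.40 with compound 6, -0.97 with compound 2 and -0.80 with compound 9, and Rpl19 and Rpsa stood at 0.14 and 0.11 after withdrawal. The compound 2 median was -0.42 in the scanner's log ratios. Leaving out each array in turn gave 0 to 77 calls after withdrawal, 0 to 1 for compound 2 and 0 to 9 for compound 6. It gave medians of -0.76 to -0.36, -0.27 to -0.010, -0.44 to -0.035 and -0.089 to 0.078 for withdrawal and compounds 2, 6 and 9.

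Alternatives to the replicate block fit were added after seeing the data, and their counts too stand without the share over all genes. Withdrawal calls (77) were 50 in the scanner's log ratios and 36 in the sample channel. For compound 2 (8) they were 61 and 17 in these, 16 in the matrix and 58 without loess. For compound 6 (25) they were 14 and 6, 60 without loess, 14 with ribosomal protein probes at weight 0 in the loess and 66 without letter F. For compound 9 against compound 2 (4) they were 69 and 46, 30 in the matrix, 26 without loess and 12 without letter F. For compound 6 against withdrawal (75) they were 12 and 7, 37 in the matrix and 2 without loess. Compound 9 had 0 calls in each of these fits.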

Other observations

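Rpl39l was bright in the reference RNA, with a median Cy5 signal of 5750 intensity units, while its Cy3 signal in the organoids was 29.3 to 38.5, beside array medians over all probes of 38.6 to 44.0. Rpl3l and Rpl10l were dim in both channels, with median Cy5 signals of 58.4 and 59.1.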
